A study of Mus musculus with 24 samples.

Results

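The 9 genes described here encode the coat of the mouse egg, the proteins of its surface that meet the sperm and the growth factors that the oocyte secretes. They were chosen by name as a group of known egg genes, with earlier results of these data known. They are 9 of the 55471 annotated genes measured. *Zp1*, *Zp2* and *Zp3* encode the zona pellucida, *Gdf9* and *Bmp15* encode growth factors, and *Oosp1* encodes an oocyte-secreted protein. *Astl* encodes ovastacin, the protease of cortical granules, and *Cd9* and *Izumo1r* (Juno) encode proteins of the egg membrane.

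N6-methyladenosine (m6A) was profiled by SLIM-seq, a low-input antibody pull-down of methylated RNA, in oocytes of the B6D2F1 background arrested at metaphase II (MII) and in embryos at the end of the 1-cell stage (L1C) and of the 2-cell stage (L2C), with 3 immunoprecipitated (IP) and 3 input libraries at each. Oocytes and these embryos came from superovulated females of 8 weeks. Oocytes were taken 14 to 16 h after hCG, the hormone used to trigger ovulation. Zygotes from matings with B6D2F1 males were collected at the same hours and cultured in vitro. They were taken as embryos 27 to 29 h (L1C) and 48 to 50 h (L2C) after hCG. Between oocytes and embryos, culture and stage thus cannot be told apart. In a second experiment, zygotes received Cas13d mRNA with 3 crRNAs against *Ythdc1* (KD, 3 libraries) or Cas13d mRNA alone (NC, 3 libraries), and were collected at L2C. *Ythdc1* encodes a nuclear reader of m6A, Cas13d cleaves RNA that its crRNA pairs with, and the NC embryos carried no crRNA. For the KD and NC embryos, the age of the females and the hours after hCG are not given. The methods do not say how many oocytes or embryos went into a library.

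The zona pellucida is a coat of filaments laid down by the growing oocyte, and sperm must bind and cross it before they reach the egg membrane. After fertilization, ovastacin from the cortical granules cuts ZP2, and Juno is shed from the membrane, which together block further sperm. GDF9 and BMP15 belong to the TGF-β family and act on the granulosa cells around the oocyte. Transcripts of most such genes are made during oocyte growth, stored, and degraded around the time that the embryo starts its own transcription.

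The SLIM-seq libraries held 11107421 to 39739950 estimated counts. KD and NC libraries held 3276715 to 5463868 counts in a merged table of 25739 genes that lists 4 of the 9 genes (*Zp3*, *Bmp15*, *Astl* and *Cd9*), while counts over the whole annotation (8696476 to 14500548 a library) were used for 2 KD and 3 NC libraries. Transcripts of the target *Ythdc1* were at 202 and 208 CPM in these KD libraries against 380 to 422 CPM in NC, a log2 change of -0.99 ± 0.08 (SE, adjusted p = 5.21e-08). Of 16 markers of cumulus and granulosa cells, *Ptx3* had no count in any input library, and the summed level of the list was 75.7 to 89.7 CPM in MII inputs, 61.2 to 65.7 CPM at L1C and 14.9 to 17.0 CPM at L2C. *Cyp19a1*, which makes estrogen in granulosa cells, led it at MII with a mean of 35.7 CPM. Of its 11 genes tested in the inputs, 8 were lower at L2C than at L1C, where 38.8% of all genes tested were lower. The summed level of the list fell over the same stages as most of the 9 genes, and its part in the results was not tested.

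Among the 9 genes, the results turn on 2 pairs with opposite m6A enrichment, so a stretch of each is shown around GGACT, the form of the m6A consensus that was searched. GGACT was found in the reference transcript with the longest coding region of all 9 genes, and in 86.7% of the 21901 protein-coding genes, so that holding it sets no gene apart. The windows below are the GGACT nearest to the stop codon in *Oosp1* and *Bmp15*, which were above input in IP at every stage, and in *Gdf9* and *Astl*, which were below it. They are read 5′ to 3′ on the transcript, with GGACT in capitals, from GENCODE M21 on GRCm38.
Oosp1, chr19:11688681-11688705, minus strand, coding part of exon 2: tttatctaccGGACTtactcctgcg
Bmp15, chrX:6316450-6316474, minus strand, coding part of exon 2: tacagaccctGGACTttcctctagc
Gdf9, chr11:53437321-53437345, plus strand, coding part of exon 2: actgtaaaggGGACTgtcctagggc
Astl, chr2:127356445-127356469, plus strand, coding part of exon 9: agtggctccaGGACTggaggccaga

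GGACT, 1 form of the consensus, was counted per kb of transcript, and whether its density goes with enrichment was not tested. *Oosp1* held 2.06 GGACT per kb of transcript and *Bmp15* 0.98, against 1.12 in *Gdf9* and 1.78 in *Astl*, and the median of all protein-coding genes was 1.02 per kb. Over the other 5 genes the density ran from 0.509 per kb in *Zp1*, with 1 GGACT, to 3.1 per kb in *Izumo1r*, with 4. Enrichment was measured per gene, so that no window is known here to carry the mark.

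In unfertilized oocytes the growth factor transcripts were by far the most abundant of the 9. As scaled CPM per kb of exon, *Gdf9* stood at 2080 ± 293 (SD, n = 3 inputs) and *Bmp15* at 762 ± 28.9, followed by *Oosp1* at 254 ± 7.83 and *Zp1* at 175 ± 24.1. *Zp3* (120 ± 8.9) and *Astl* (115 ± 16.4) overlapped, and *Izumo1r* (34.7 ± 2.23), *Zp2* (19.6 ± 1.28) and *Cd9* (9.97 ± 0.828) came last, each apart from its neighbours. At L2C the order was another one, with *Zp3* at 93.4 ± 8.37, *Bmp15* at 85.1 ± 5.78 and *Oosp1* at 82.1 ± 19.0, which overlapped in this order, and *Izumo1r* at the bottom with 1.86 ± 0.25. *Cd9* came next, at 41.8 ± 6.88, and overlapped with *Gdf9* at 40.7 ± 6.74. The order depended on the length used. The deposited TPM, set over whole gene spans, gave another rank to 4 of the 9 at MII, 2 at L1C and 6 at L2C. By these means *Bmp15* led at L2C with 196 TPM before *Zp3* (71.1), *Gdf9* (59.3), *Zp1* (42.0), *Oosp1* (16.2) and *Cd9* (11.8), while *Gdf9* (5040) and *Bmp15* (2890) led at MII by both lengths.

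The comparison of inputs between stages asks how the stored transcripts change after fertilization. The 9 genes took different courses (see the plot of input levels by stage). *Gdf9* and *Astl* fell steeply in both intervals, *Zp1* fell mostly by L1C, *Zp2*, *Izumo1r* and, less surely, *Bmp15* rose by L1C and fell afterwards, *Zp3* fell and rose again, *Oosp1*, too, fell mostly by L1C, and *Cd9* rose in both intervals. All values are scaled CPM, a share of each library, so that fewer copies of a transcript per embryo and more of other RNA cannot be told apart, nor fewer cells of a type from less RNA per cell. Reverse transcription started from an oligo-dT primer, which pairs with the poly(A) tail. A change in tail length can thus not be told apart from a change in copies. From MII to L1C, 4 of the 9 were higher and 5 lower, where 31.9% of the 19903 genes tested were higher and 24.3% lower. Their median log2 change was -1.16 against 0.16 over all genes.

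**Figure D1:**
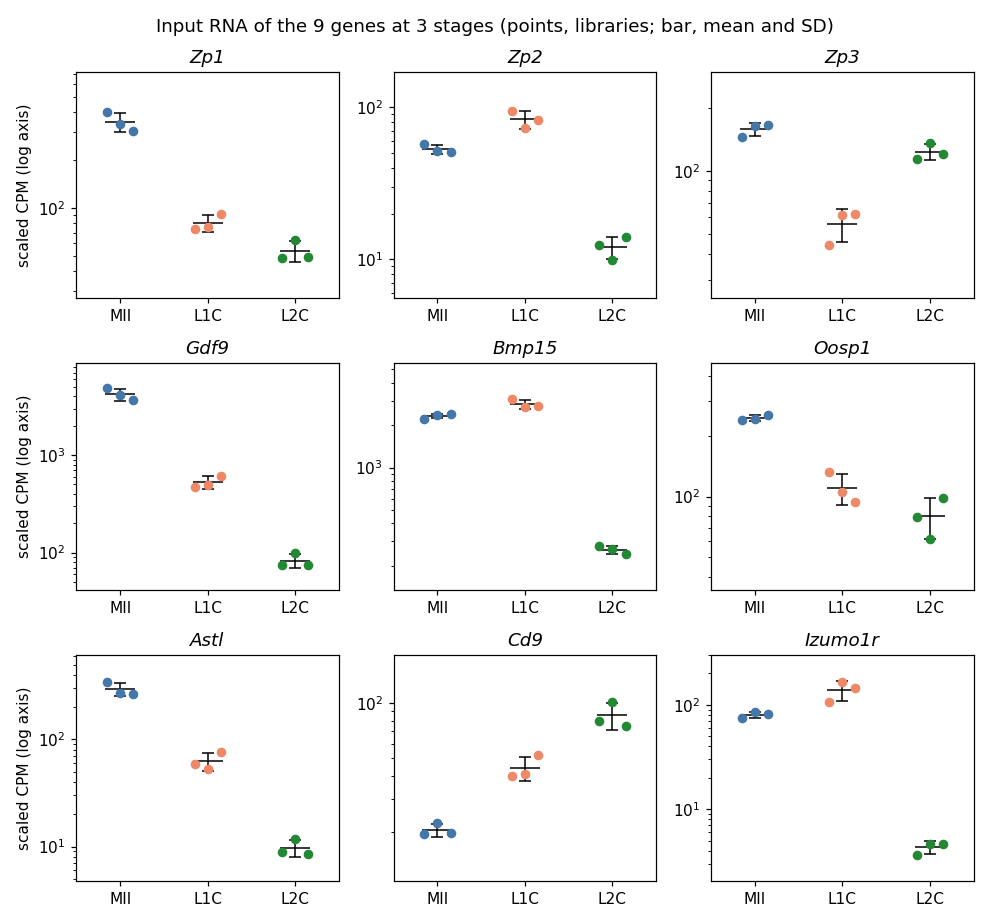
Scaled CPM (log axis) of each of the 9 genes in the 3 input libraries of MII oocytes, L1C and L2C embryos; points are libraries, and the bar with whiskers is the mean with its SD. *Gdf9* steps down at both intervals from 3670 to 4860 CPM at MII to 74.4 to 98.4 CPM at L2C, while *Cd9* climbs from 19.3 to 22.3 CPM to 75.2 to 101 CPM.

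Of the zona genes, *Zp1*, whose product cross-links the filaments, was at 399, 337 and 305 CPM in the MII inputs, 73.5, 75.8 and 92.3 CPM at L1C and 48.6, 63.2 and 49.3 CPM at L2C. The stages did not overlap, and most of the loss came first, with a log2 change of -2.11 ± 0.15 (SE, adjusted p = 6.61e-08) to L1C and -0.59 ± 0.15 (0.0021) from there to L2C. *Zp2*, which sperm bind and ovastacin cuts, was at 57.2, 52.0 and 50.5 CPM at MII, 95.0, 72.8 and 82.1 CPM at L1C and 12.4, 9.99 and 14.0 CPM at L2C. Each L1C input was above every MII input and every L2C input below both, with log2 changes of 0.64 ± 0.15 (adjusted p = 0.00202) and then -2.77 ± 0.16 (6.91e-10). *Zp3*, a structural partner of ZP2 in the filament, was at 145, 165 and 166 CPM at MII, 44.0, 61.5 and 61.8 CPM at L1C and 114, 136 and 121 CPM at L2C. Its lowest values were those of L1C, and it fell by 1.51 on the log2 scale (SE 0.15, adjusted p = 1.16e-06) before it rose by 1.15 ± 0.14 (3.75e-06).

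L2C stood below MII for *Zp3*, by a log2 change of -0.36 ± 0.14 (adjusted p = 0.0289), but this call was lost in 6 of 16 alternatives. They were DESeq2, scaling to library size, and leaving out MII replicate 2 or 3 or L2C replicate 1 or 3, with adjusted p from 0.0696 to 0.17. With all 18 SLIM-seq libraries scaled together, the change was -0.69 (6.87e-05), so that its size depended on the scaling.

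*Gdf9* was at 4860, 4150 and 3670 CPM at MII, 471, 492 and 616 CPM at L1C and 74.4, 98.4 and 75.0 CPM at L2C. It was 8.03-fold lower at L1C than at MII (log2 -3.01 ± 0.16, adjusted p = 3.68e-09) and a further 6.37-fold lower at L2C (-2.67 ± 0.16, 1.25e-09). *Bmp15*, its partner growth factor, was at 2230, 2350 and 2410 CPM at MII, 3070, 2700 and 2730 CPM at L1C and 277, 262 and 242 CPM at L2C. It was thus kept to L1C and then fell 10.9-fold (log2 -3.44 ± 0.12, adjusted p = 6.5e-12), and the stages did not overlap. The small rise to L1C of 0.28 ± 0.11 (adjusted p = 0.0402) lost its call in 11 of 16 alternatives, among them DESeq2 and leaving out any MII input or replicate 1 or 3 of either embryo stage, with adjusted p from 0.0501 to 0.179. *Oosp1* was at 241, 244 and 256 CPM at MII, 132, 105 and 93.7 CPM at L1C and 78.8, 61.8 and 98.7 CPM at L2C. MII was apart from both embryo stages, which overlapped. The log2 change was -1.16 ± 0.17 (adjusted p = 4.84e-05) to L1C and -0.47 ± 0.17 (0.0178) to L2C. The second call was lost with DESeq2 (0.0616), without L1C input 1 (0.0696) and without L2C input 2 (0.0783).

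*Astl* was at 342, 273 and 266 CPM at MII, 59.2, 53.2 and 76.0 CPM at L1C and 8.82, 11.7 and 8.5 CPM at L2C. As for *Gdf9*, the fall was steep in both intervals, with log2 changes of -2.23 ± 0.17 (adjusted p = 1.14e-07) and -2.71 ± 0.18 (3.09e-09). *Izumo1r*, the egg receptor for the sperm protein IZUMO1, was at 74.9, 85.2 and 81.1 CPM at MII, 106, 167 and 146 CPM at L1C and 3.65, 4.62 and 4.68 CPM at L2C. It rose by 0.80 ± 0.16 (adjusted p = 0.000705) and then fell 32.4-fold, the steepest drop of the 9 from L1C to L2C (log2 -5.02 ± 0.19, 1.55e-11). *Cd9*, a tetraspanin needed for sperm and egg to fuse and also made by many somatic cells, was at 19.3, 22.3 and 19.6 CPM at MII, 39.8, 41.0 and 51.9 CPM at L1C and 79.6, 101 and 75.2 CPM at L2C. It rose by 1.12 ± 0.16 (adjusted p = 3.77e-05) and again by 0.95 ± 0.15 (4.34e-05). *Gm26728*, annotated on the opposite strand at the 5′ end of *Cd9*, held a mean of 23.29 counts at L2C, against 2131.5 to 2972.3 for *Cd9*.

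From L1C to L2C, 2 of the 9 (*Zp3* and *Cd9*) were higher and 7 lower, against 44.1% and 38.8% of all genes tested, with a median log2 change of -2.67 against 0.17. Between MII and L2C, only *Cd9* of the 9 was higher and 8 were lower, against 47.5% and 37.1%. The median change was -2.69 against 0.40 over all genes. These 3 contrasts share inputs with each other. The largest loss over both intervals was that of *Gdf9*, 51.2-fold, followed by *Astl*, 30.5-fold, and *Izumo1r*, 18.6-fold.

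Since *Zp3* and *Cd9* were the 2 that rose between L1C and L2C, the 250 bases before their annotated starts are given from RefSeq (GRCm38.p6), with each CANNTG (E-box, read the same on both strands) in capitals.
Zp3, chr5:135979855-135980104, plus strand: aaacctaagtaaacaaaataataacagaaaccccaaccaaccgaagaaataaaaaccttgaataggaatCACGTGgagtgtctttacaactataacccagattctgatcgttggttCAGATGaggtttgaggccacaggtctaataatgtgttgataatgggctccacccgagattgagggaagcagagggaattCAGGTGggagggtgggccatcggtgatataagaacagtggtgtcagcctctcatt
Cd9, chr6:125494761-125495010, minus strand: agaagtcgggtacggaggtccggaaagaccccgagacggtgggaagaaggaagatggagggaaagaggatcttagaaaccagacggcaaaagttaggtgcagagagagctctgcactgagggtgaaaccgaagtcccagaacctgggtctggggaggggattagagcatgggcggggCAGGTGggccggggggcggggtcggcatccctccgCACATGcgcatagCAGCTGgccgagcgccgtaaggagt

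Each window held 3 CANNTG. In GENCODE M21 the genes start at 135980099 (*Zp3*) and 125494791 (*Cd9*), so both windows reach past those starts. The last CANNTG of *Cd9* lies past its GENCODE start. Of the 32851 promoters of the same length, 12.2% held at least 3 and 66.2% at least 1. They differed in base composition, with 5 CG pairs and 43.6% G and C before *Zp3* and 16 CG pairs and 61.6% before *Cd9*, where the medians of all promoters were 6 and 52.4%. *Oosp1*, *Izumo1r* and *Bmp15* had 5, 1 and 1 CANNTG in theirs, and *Astl*, with 2 annotated starts, 0 and 3. No factor was measured at these windows.

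The comparison of IP with input asks which transcripts carry m6A at a stage. In MII oocytes 4 of the 9 were above input (*Oosp1*, *Bmp15*, *Cd9* and *Izumo1r*) and 2 below (*Gdf9* and *Astl*), where 17.7% of the 21950 genes tested were above and 21.0% below. At L1C 3 were above and 2 below, against 15.8% and 18.2%, and at L2C 3 were above and 3 below, against 22.0% and 22.0%. No zona gene was called above input at any stage, but with scaling to library size *Zp3* was at MII (0.36, adjusted p = 0.0306) and L1C (0.36, 0.0324) and *Zp2* at L2C (0.56, 0.00274). *Zp2* at L2C also had a log2 above 0 with an unadjusted p under 0.05 in edgeR (0.31, unadjusted p = 0.0464), and 4 of the 9 were above input there by that looser threshold. The median log2 IP/input of the 9 was 0.13, 0.06 and 0.11 at MII, L1C and L2C, near the medians of all genes of 0.00, 0.07 and 0.09.

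The zero of this scale rests on the normalization. With library size alone the all-gene medians were 0.20, 0.37 and 0.34, and the share of called genes that were above input went from 45.7% to 61.7% at MII, 46.5% to 70.9% at L1C and 50.0% to 67.6% at L2C. Over the 9 genes, *Oosp1* and *Bmp15* stayed above and *Gdf9* and *Astl* below input at each stage under each of the 23 alternatives by value, whereas *Zp1* at MII, *Zp2* at L1C and *Zp3* at L2C changed sign with library size, without a call.

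**Figure D2:**
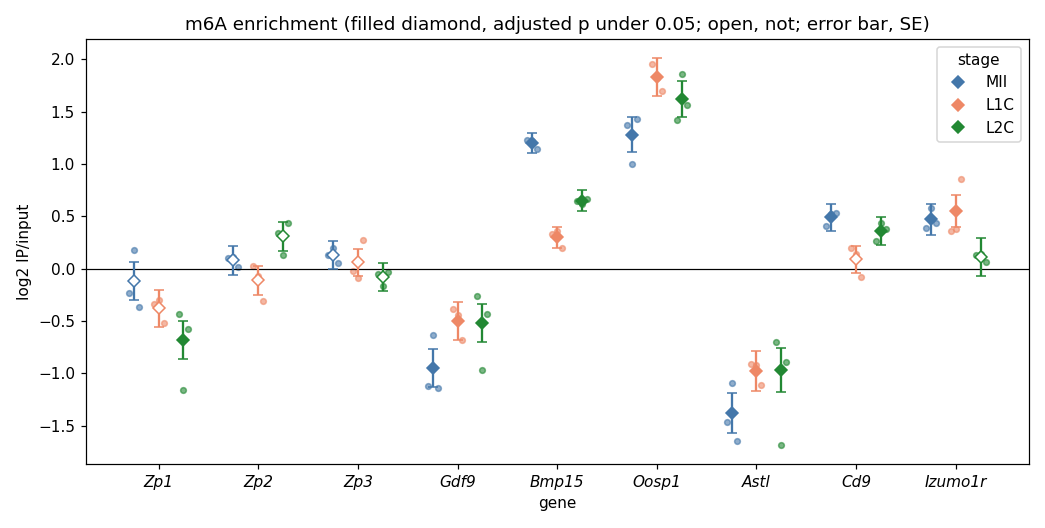
Log2 IP/input (vertical axis) of the 9 genes at MII (blue), L1C (orange) and L2C (green); diamonds are fitted values with SE, filled where the adjusted p is under 0.05, and small points are the 3 IP libraries over the mean of the inputs. *Oosp1* and *Bmp15* lie above 0 and *Gdf9* and *Astl* below it at each stage, with *Bmp15* at 1.20, 0.30 and 0.65.

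*Oosp1* had the highest enrichment of the 9 at L1C and L2C, and at MII its libraries overlapped with those of *Bmp15*. Its IP libraries stood over the mean of the inputs by a log2 of 1.37, 1.00 and 1.43 at MII, 1.95, 1.82 and 1.70 in L1C embryos and 1.42, 1.86 and 1.56 in L2C embryos, with no overlap with the inputs. The fitted values were 1.28 ± 0.17 (SE, adjusted p = 6.91e-06), 1.83 ± 0.18 (1.91e-07) and 1.62 ± 0.17 (6.6e-07). *Bmp15* was at 1.23, 1.22 and 1.14 in the MII IP libraries, 0.33, 0.36 and 0.20 in L1C embryos and 0.65, 0.62 and 0.67 at L2C. Its MII values were all above those of L2C, and these all above those of L1C. The fitted values were 1.20 ± 0.10 (adjusted p = 1.3e-08), 0.30 ± 0.10 (0.0222) and 0.65 ± 0.10 (3.19e-05). The L1C call was lost in 7 of 23 alternatives, among them leaving out L1C input 2 or 3 or L1C IP 1 or 2 (adjusted p from 0.0821 to 0.0932).

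The other growth factor went the opposite way. *Gdf9* IP libraries stood at -1.12, -0.63 and -1.14 at MII, -0.39, -0.44 and -0.68 in L1C embryos and -0.26, -0.97 and -0.43 in L2C embryos, below every input of their stage. The fitted value was -0.95 ± 0.18 (adjusted p = 0.000364) at MII, -0.50 ± 0.18 (0.0404) at L1C and -0.52 ± 0.18 (0.0291) at L2C. Only the first was called in all 23 alternatives, and with library size the others were at -0.20 (0.391) and -0.27 (0.218). The L1C call was lost without L1C input 2 or 3 or L1C IP 2 or 3 (0.0539 to 0.171), and the L2C call without L2C input 2 (0.132) or L2C IP 2 (0.139). Both were also lost with the replicate number as a block (0.0924 and 0.0629). *Astl* IP libraries stood at -1.46, -1.09 and -1.65 at MII, -0.91, -0.92 and -1.11 in L1C embryos and -0.70, -1.68 and -0.89 in L2C embryos, again below every input. The fitted values were -1.38 ± 0.19 (adjusted p = 1.01e-05), -0.98 ± 0.19 (0.000599) and -0.97 ± 0.21 (0.00117).

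The second L2C IP library, the shallowest of all, stood at 1 end of its group for each of the 9 genes. It gave the lowest log2 IP/input of the 3 for the zona genes, *Gdf9*, *Bmp15* and *Astl*, and the highest for *Oosp1*, *Cd9* and *Izumo1r*, with the widest gaps for *Astl*, *Zp1* and *Gdf9*. Without it 2 of the 9 were above and 2 below input at L2C in place of 3 and 3. *Zp1* was below input at L2C with -0.43, -1.16 and -0.58 (fitted -0.68 ± 0.18, adjusted p = 0.005), and without that library it was at -0.50 (0.0273) and *Astl* at -0.78 (0.00503). At the earlier stages, in turn, *Zp1* was at -0.12 ± 0.18 and -0.38 ± 0.18 with no call, and the L1C value was called in 1 of 23 alternatives, a fit of only the stages compared (-0.39, 0.0344). *Zp2* lay between -0.11 and 0.31 and *Zp3* between -0.08 and 0.13 over the 3 stages, without a call. Beside the calls that came with library size, *Zp2* at L2C was called without L2C input 3 (0.42, 0.0449).

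*Cd9* was above input at MII (0.49 ± 0.13, adjusted p = 0.00613), with IP libraries at 0.41, 0.52 and 0.53. At L1C it was at 0.09 ± 0.13 with no call, although library size put it above input there (0.39, 0.0263), and at L2C it was at 0.36 ± 0.13 (0.0277), a call lost in 7 of 23 alternatives, among them leaving out L2C input 1 or 3 or L2C IP 2 or 3 (0.0691 to 0.144). *Izumo1r* was above input in MII oocytes (0.47 ± 0.15, adjusted p = 0.0197), with IP libraries at 0.39, 0.58 and 0.44. L1C gave 0.55 ± 0.15 (0.0083), and L2C, where its input level was lowest, 0.11 ± 0.18 with no call. Its MII call was lost without MII input 1 or 3 or MII IP 2 (0.0517 to 0.0698) and its L1C call without L1C input 1 (0.051) or L1C IP 3 (0.0753).

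Whether enrichment itself changed between stages was tested as an interaction, and in the main fit only *Bmp15* passed. Its IP/input was lower at both embryo stages, with a log2 difference from MII of -0.90 ± 0.14 at L1C (adjusted p = 0.000329) and -0.55 ± 0.14 at L2C (0.00756). These calls held in each of 23 alternatives. From MII to L1C 0 of the 9 were higher and 1 lower, against 3.13% and 4.21% of all genes, and from MII to L2C 0 were higher and 1 lower, against 11.1% and 9.21%. From L1C to L2C 0 were higher and 0 lower, against 5.0% and 4.47%. At an unadjusted p under 0.05, edgeR gave 1, 0 and 2 higher and 2, 2 and 0 lower in these 3 comparisons in that order, and DESeq2 with adjustment gave 0 higher in each and 1, 2 and 0 lower. *Oosp1* was higher in value at L1C than at MII by 0.55 ± 0.24 (adjusted p = 0.202).

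The knockdown comparison asks how L2C transcripts differ when *Ythdc1* is reduced. Of the 9 genes, 7 were lower in KD embryos, *Zp3* was higher, and *Cd9* was not called, against 30.5% of the 17074 genes tested over the whole annotation that were higher and 36.4% lower. The median log2 change of the 9 was -1.26 against -0.09 over all genes. In the merged table, with all 6 libraries, 1 of the 4 genes listed was higher and 2 were lower, against 33.5% and 37.4% of 7433 genes.

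**Figure D3:**
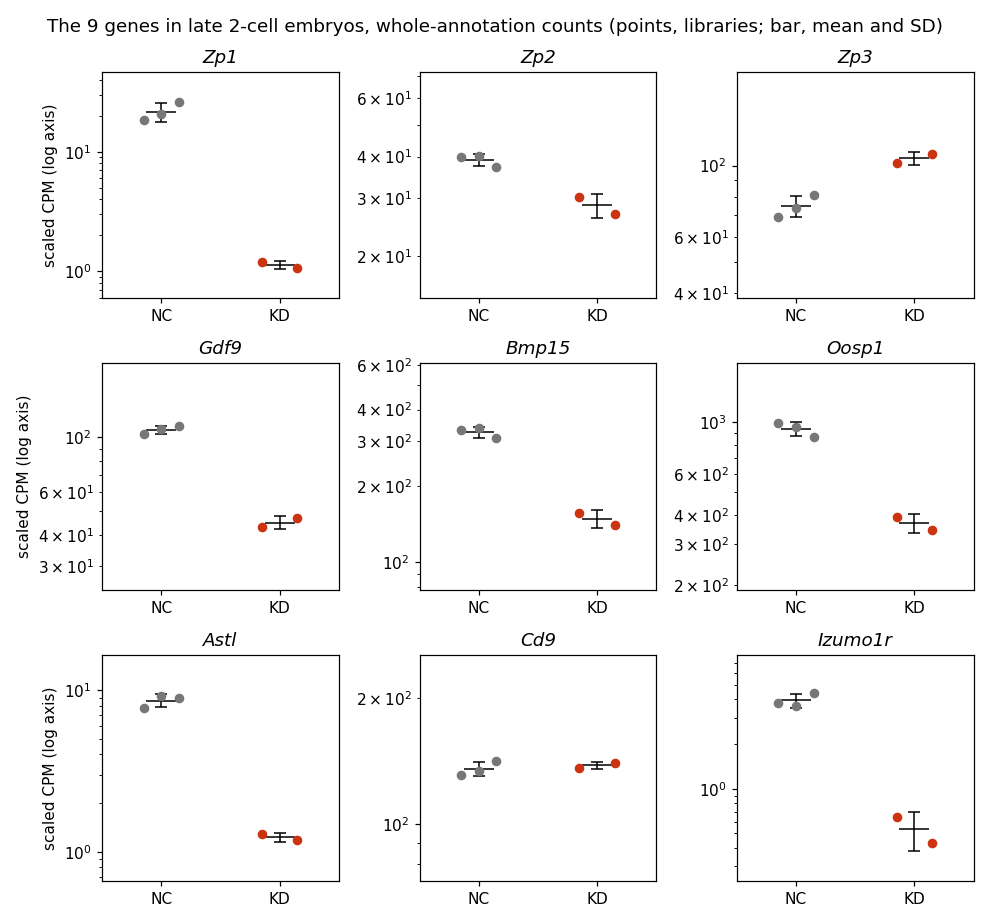
Scaled CPM (log axis) of the 9 genes in the 3 NC and 2 KD libraries of L2C embryos with counts over the whole annotation; points are libraries, and the bar with whiskers is the mean with its SD. *Zp1* drops from 18.5 to 25.9 CPM to 1.07 to 1.2 CPM, *Zp3* is higher in KD, and the *Cd9* values overlap.

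The zona genes moved apart. *Zp1* was at 1.2 and 1.07 CPM in KD (13 and 10 counts) against 18.5, 20.7 and 25.9 CPM in NC, the largest change of the 9 (18.7-fold lower, log2 -4.23 ± 0.25, adjusted p = 2.56e-09). *Zp2* was at 30.1 and 26.8 CPM in KD and 40.0, 40.1 and 37.1 CPM in NC, a smaller loss without overlap (-0.46 ± 0.11, 0.00176). *Zp3* was at 102 and 109 CPM in KD and 69.3, 74.0 and 81.0 CPM in NC. It was thus higher in both KD libraries (0.50 ± 0.10, 0.00025), and in the merged table it was 0.48 ± 0.08 higher (2.1e-05), with 265, 284 and 268 CPM of that table against 180, 193 and 212.

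The secreted factors all fell. *Gdf9* was at 43.1 and 46.9 CPM in KD against 103, 108 and 111 CPM in NC (log2 -1.26 ± 0.10, adjusted p = 3.35e-08). *Bmp15* was at 157 and 140 CPM against 333, 338 and 308 CPM (-1.14 ± 0.09, 2.64e-08), and in the merged table at -1.13 ± 0.07 (6.83e-11). *Oosp1* was at 394 and 344 CPM against 991, 948 and 862 CPM (-1.34 ± 0.08, 4.33e-09). Whether these 3 changes differ from each other was not tested.

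*Astl* was at 1.29 and 1.18 CPM in KD (14 and 11 counts) against 7.72, 9.19 and 8.98 CPM in NC, 6.89-fold lower (log2 -2.78 ± 0.29, adjusted p = 7.23e-07), and at -2.88 ± 0.25 (1.1e-08) in the merged table with the third KD library. *Izumo1r* was at 0.647 and 0.428 CPM (7 and 4 counts) against 3.76, 3.6 and 4.43 CPM, 7.05-fold lower (-2.82 ± 0.42, 2.89e-05). *Cd9* was at 136 and 140 CPM in KD and 131, 134 and 141 CPM in NC, which overlapped, with a log2 change of 0.03 ± 0.08 (adjusted p = 0.75) that changed sign with scaling to library size. Cumulus and granulosa markers summed to 16.8 to 19.6 CPM in KD and 17.5 to 20.4 CPM in NC, so that the groups overlapped in this sum, while 2 of the 4 markers tested were lower in KD and 7 of 16 had no count in each group.

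*Zp1*, *Astl* and *Gdf9* were at -0.68, -0.97 and -0.52 in log2 IP/input at L2C and *Oosp1* and *Bmp15* at 1.62 and 0.65, and all 5 were lower in KD. *Cd9*, the other gene called above input at L2C (0.36, a call lost in 7 of 23 alternatives), had no call in KD (0.03 ± 0.08, adjusted p = 0.75). The 2 genes that rose from L1C to L2C in the inputs, *Zp3* and *Cd9*, were the 2 of the 9 that were not lower in KD.

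**Figure D4:**
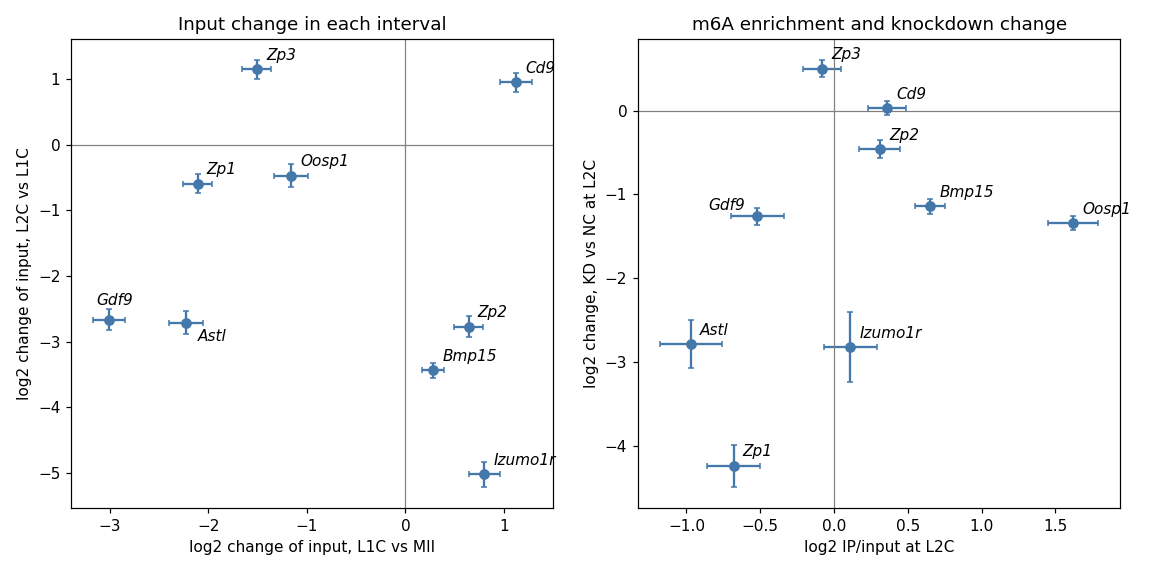
Left, log2 change of input from MII to L1C (horizontal) and from L1C to L2C (vertical) for the 9 genes, which share the L1C inputs; right, log2 IP/input at L2C (horizontal) and log2 change of KD against NC (vertical); error bars are SE. *Zp3* and *Cd9* are the 2 above 0 on the left vertical axis, and on the right *Zp1* lies lowest at -4.23 and *Oosp1* farthest right at 1.62.

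Genes that work with the 9 were counted from fixed lists, against the shares of all genes given above. Of 10 other oocyte-secreted and egg surface genes, 3 rose and 4 fell from MII to L1C, and 2 rose and 7 fell from L1C to L2C. The 2 that rose at L2C were *Itgav*, an integrin subunit (log2 4.85 ± 0.23, edgeR adjusted p = 1.05e-10), and *Folr1*, a folate receptor of the family of *Izumo1r*, and *Fgf8* fell by 4.25 (SE 0.26). In KD embryos 1 of the 10 was higher and 8 were lower. The 3 with the largest changes were losses that left few counts, so that no fold is given. *Cd81*, a tetraspanin like CD9, had 0 and 0 counts in KD against 32, 23 and 18 in NC, *Zp4-ps*, a zona pseudogene, 2 and 1 against 105, 109 and 50, and *Fgf8* 2 and 0 against 21, 36 and 18. The gene that was higher was *Folr1* (1.05 ± 0.07 in the merged table, adjusted p = 8.4e-10). In IP against input, *Oosp3*, *Itga6* and *Bmp6* were above at MII (1.05 ± 0.21, 0.47 ± 0.11 and 0.37 ± 0.12).

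Of the receptors and SMAD proteins that carry GDF9 and BMP15 signals, 11 were tested, and 3 were higher and 7 lower at L2C than at L1C. *Smad1* (-3.11 ± 0.17), *Bmpr1b* (-2.92 ± 0.13) and *Smad2* (-2.69 ± 0.16) had the largest changes. In KD embryos 4 of 11 were higher and 5 lower, led by the receptor *Acvr1* (-2.49 ± 0.43). At MII 1 of 12 was above input, the receptor *Bmpr1a* (1.58 ± 0.25), and 5 were below, led by *Smad3* (-2.19 ± 0.15).

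Of the proprotein convertases, which cut zona and growth factor precursors, and the enzymes that add GPI anchors such as that of Juno, 7 of 11 fell from MII to L1C, led by *Furin* (-2.81 ± 0.21) and *Pcsk7* (-2.44 ± 0.19). In KD embryos 3 were higher and 3 lower, with *Furin* at 5 and 1 counts against 58, 43 and 36 in NC and *Pigu*, of the GPI transamidase, at 2.38 ± 0.26. Of 8 cortical granule exocytosis genes tested, 3 rose and 3 fell by L1C, and 3 rose and 4 fell from there to L2C. Of 6 oocyte transcription factors, 2 were higher and 4 lower at L2C than at L1C, with *Nobox*, needed for oocyte growth, at -4.01 ± 0.20 and *Taf4b* at 3.82 ± 0.16. Of 12 sperm genes, 5 passed the filter in the inputs, and 2 were higher and 2 lower in that interval.

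For each of the 9, the gene with the closest course over the 9 inputs was looked up among 6817 other protein-coding genes, by the root-mean-square difference of centred log2 values. The course of *Zp2* was closest to that of *Smad2* (0.06, with means of 84.2, 121 and 18.6 CPM at MII, L1C and L2C), and that of *Zp3* to *Grm2* (0.06, with 454, 162 and 339 CPM). *Zp1* was closest to *Llgl1* (0.08), *Oosp1* to *Depdc7* (0.10), *Bmp15* to *Lmo7* (0.11), *Astl* to *Cryl1* (0.12) and *Cd9* to *Thap1* (0.13). *Izumo1r* was closest to *Pja1* (0.15), and *Gdf9* to *Nfkbiz* at 0.25, the least close of these pairs. Over all candidates the median difference ran from 0.81 for *Oosp1* to 2.01 for *Gdf9*.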

How the data were processed

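SLIM-seq libraries (18) and KD and NC libraries (6) were grouped by the sample labels. For SLIM-seq the authors ran kallisto on whole gene spans, introns included, and deposited estimated counts and TPM per gene. For KD and NC the authors trimmed with Trimmomatic, aligned with HISAT2 and deposited raw counts on exons from featureCounts, without a strand option, on GRCm38. These tools are also named in the submitters' processing notes. The deposited counts of the third KD library cover the genes of the merged table only.

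Estimated counts were rounded and tested with edgeR 4.0.16 (quasi-likelihood, TMM, filterByExpr, two-sided, Benjamini-Hochberg over all genes tested) in R 4.3.3. IP against input and its change between stages came from 1 fit of all 18 libraries, input changes from the 9 inputs, and KD against NC from each KD table. A call is an adjusted p under 0.05. Scaled CPM used TMM factors of the same libraries, and log2 IP/input per library those of all 18. Levels between genes were divided by merged exon length. Likeness used log2(CPM + 1), among genes with a mean of at least 10 CPM in MII inputs. DESeq2 1.42.0, library-size scaling, no filter, a replicate block, fewer stages, protein-coding genes only, looser or stricter call rules modelled on those of the study (for IP an unadjusted edgeR p under 0.05, log2 above 0 and over 1 count in each input, for KD an unadjusted edgeR p under 0.05 and a log2 change over 1 in size) and leaving out each library were the alternatives. The fits were also run on simulated data with 200 changed genes, for IP against input at L1C, inputs from MII to L1C, and KD against NC. Changes of IP/input between stages, and changes in most genes at once, were not simulated.

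The 9 genes, the lists and the rule for named genes (all 9, at most 3 of a list per comparison with the largest called change, the closest gene) were chosen with earlier results of these data known. Nothing says whether replicates came from separate animals, so p-values measure the spread between libraries. Gene positions, types and transcripts came from GENCODE M21 (55144 of 55471 IDs matched), promoters from RefSeq for 6 of the 9 genes (those of *Zp1*, *Zp2* and *Gdf9* were not used here). Figures used Python 3.11.15 and matplotlib 3.10.9. Same-numbered libraries did not deviate together (correlations from -0.154 to 0.16), and the methods, which take inputs from the batches of the IPs, do not say that a number marks a batch, so numbers were not taken as pairs.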

Additional observations from a re-analysis of the deposited data

Results flagged for a closer look

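The enrichment of *Bmp15* differed between stages in the interaction test: its log2 difference from MII was -0.90 ± 0.14 (SE, edgeR adjusted p = 0.000329) at L1C and -0.55 ± 0.14 at L2C (adjusted p = 0.00756). Over 23 alternatives the first ran from -0.98 to -0.83 and the second from -0.72 to -0.51. All 3 IP libraries of MII were above those of L1C and of L2C in log2 IP/input.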

How the results depend on the processing

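Counts of the 9 genes called per comparison and direction moved by over 1.5 times in few alternatives. Scaling to library size gave 5 above and 1 below input at L1C. The KD call rule modelled on that of the study, with the p of edgeR, gave 0 genes higher in KD in both tables, since *Zp3* changed by less than 1 on the log2 scale. DESeq2, no filter and only the stages compared each gave 2 genes with lower enrichment at L2C than at MII in place of 1. The added gene was *Zp1* with DESeq2 (-0.65, adjusted p = 0.0482) and without a filter (-0.6, edgeR adjusted p = 0.043). With only the stages compared it was *Izumo1r* (-0.53, edgeR adjusted p = 0.0304). Leaving out each library gave 1 to 2 genes below input at L1C. With 1 KD library left over the whole annotation, its spread was taken from the other groups.

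With the replicate block, which pairs same-numbered libraries, 1 gene was below input at L1C. *Gdf9* (adjusted p = 0.0924) and *Bmp15* (0.0742) lost their calls there, *Gdf9* (0.0629) and *Cd9* (0.0505) theirs at L2C and *Bmp15* (0.0535) its input rise to L1C, and the block changed no other call of the 9.

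The values that changed sign were all uncalled. With library size, log2 IP/input was 0.11 for *Zp1* at MII, 0.19 for *Zp2* at L1C and 0.18 for *Zp3* at L2C, the change of *Zp3* from MII to L1C was 0.0025, and *Cd9* in KD was at -0.07 (merged) and -0.04 (whole annotation). The change of *Astl* IP/input from L1C to L2C was -0.08 with DESeq2, -0.05 with library size, -0.03 without a filter, -0.03 with the block and -0.21 with only those stages, and with only the stages compared that of *Izumo1r* from MII to L1C was -0.01. Leaving out each library gave ranges across 0 for IP/input of *Zp1* at MII (-0.30 to 0.01), *Zp3* at L1C (-0.08 to 0.14), *Cd9* at L1C (-0.01 to 0.21) and *Izumo1r* at L2C (-0.0026 to 0.18), and for changes of *Zp3* (-0.21 to 0.01) and *Izumo1r* (-0.11 to 0.22) from MII to L1C and of *Gdf9* (-0.17 to 0.15) and *Astl* (-0.19 to 0.20) from L1C to L2C. The cause was not tested.

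Scaling all 18 libraries together, chosen after seeing the data, changed 1 of 27 calls on the inputs, the rise of *Bmp15* to L1C (0.20, adjusted p = 0.0951). Levels as TPM over the gene span in place of CPM per exon kb moved 4, 2 and 6 of 9 ranks at MII, L1C and L2C. Counts of 4 to 14 a KD library limit *Izumo1r*, *Zp1* and *Astl*.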

Other observations

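L2C embryos were measured in both experiments, with separate libraries and other counting methods, and the levels are given side by side without a test. *Oosp1* was at 61.8 to 98.7 CPM in the L2C inputs and 862 to 991 CPM in NC embryos. *Zp1* was at 48.6 to 63.2 CPM in the inputs and 18.5 to 25.9 CPM in NC, and *Bmp15* at 242 to 277 CPM and 308 to 338 CPM. Among the MII inputs, replicate 1 held the highest values of *Zp1*, *Gdf9*, *Astl* and *Zp2* and the lowest of *Zp3*, *Bmp15*, *Oosp1*, *Cd9* and *Izumo1r*.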
